A study of Mus musculus with 8 samples.

Results

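Regions open after KCl in both genotypes are genomic sites that carried a nucleosome-free ATAC-seq peak in the KCl lists of both genotypes and in neither basal list. Peaks of the 4 deposited lists on chromosomes 1 to 19 were merged wherever they overlapped by at least 1 bp, which gave 60611 regions, and 814 of them (1.34%) are the members described here. The members were chosen by the presence and absence of peaks in these same lists, so their number and their peak values are descriptions and carry no test. ATAC-seq marks accessible DNA with the Tn5 transposase, and the study asked how the chromatin of neurons with and without Brg1 responds to depolarisation. The neurons were cultured from the cortex of E16.5 mouse embryos. The 4 groups were cKO KCl, WT KCl, cKO basal and WT basal, with 2 libraries and 1 deposited peak list each. The cKO neurons carried BAF53bCre and Brg1F/F, in which Cre from the neuronal gene BAF53b deletes floxed Brg1 (Smarca4), and the WT neurons were Brg1 WT. KCl at 50 mM was given for 1 h on day 6 in vitro, after TTX at 1 µM and APV at 100 µM on day 5, and the basal groups received no KCl. Whether the basal cultures also received TTX and APV is not given in the sources used here. Each library came from 50000 cells.

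Raised extracellular KCl depolarises neurons, opens voltage-gated calcium channels and activates kinases that phosphorylate CREB and other transcription factors already bound to DNA. Rapid response genes such as Fos, Junb, Nr4a1 and Npas4 are transcribed within minutes without new protein, and the factors they encode act on delayed response genes. Brg1 is an ATPase of the BAF complex, which slides and evicts nucleosomes at promoters and enhancers. In postmitotic neurons the complex contains the subunit BAF53b, so a BAF53b-driven Cre should leave Brg1 intact in progenitors and glia of the same culture.

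The sequences below are RefSeq promoter windows (build GRCm38.p6), each from 250 bases before a transcript start to 50 bases after it, printed 5′ to 3′ on the strand of the gene. Capitals mark matches on either strand to 6 motifs: AP-1 (TGANTCA), the cAMP response element or CRE (TGACGTCA), its core (TGACG, which every full CRE contains), Egr (GCGTGGGCG), Sp (GGGCGG) and the CCAAT box (CCAAT). The first 3 windows belong to the rapid response genes with a transcript start inside a member. They are Nr4a1 (chr15:101266596-101266895, plus strand), Junb (chr8:84978699-84978998, minus strand) and Gadd45b (chr10:80929841-80930140, plus strand).
Nr4a1: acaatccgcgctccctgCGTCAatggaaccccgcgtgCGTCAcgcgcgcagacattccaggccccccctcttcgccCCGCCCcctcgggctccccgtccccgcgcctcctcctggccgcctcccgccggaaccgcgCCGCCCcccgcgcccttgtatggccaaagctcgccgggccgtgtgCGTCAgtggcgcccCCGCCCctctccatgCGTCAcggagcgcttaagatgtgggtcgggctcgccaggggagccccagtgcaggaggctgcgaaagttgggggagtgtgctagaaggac
Junb: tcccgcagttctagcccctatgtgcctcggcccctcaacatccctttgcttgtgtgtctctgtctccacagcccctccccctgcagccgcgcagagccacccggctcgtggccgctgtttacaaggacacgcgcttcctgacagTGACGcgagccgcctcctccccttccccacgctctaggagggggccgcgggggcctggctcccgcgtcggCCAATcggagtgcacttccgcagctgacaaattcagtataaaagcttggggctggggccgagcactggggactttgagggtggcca
Gadd45b: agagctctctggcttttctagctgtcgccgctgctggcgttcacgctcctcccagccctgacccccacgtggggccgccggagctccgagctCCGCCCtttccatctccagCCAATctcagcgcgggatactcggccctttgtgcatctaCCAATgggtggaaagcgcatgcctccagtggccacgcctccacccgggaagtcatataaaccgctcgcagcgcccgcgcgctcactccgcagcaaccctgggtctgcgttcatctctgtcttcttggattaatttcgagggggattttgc
The Nr4a1 window held 4 copies of the CRE core and 3 Sp motifs, the Junb window 1 CRE core and 1 CCAAT box, and the Gadd45b window 2 CCAAT boxes and 1 Sp motif. A match describes the letters in the window and does not show that a factor binds there.

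The next 3 windows belong to starts within the strongest members by peak fold. They are Etv6, which encodes a repressor of the ETS family (chr6:134035450-134035749, plus strand), Rbm18, which encodes an RNA-binding protein (chr2:36136655-36136954, minus strand), and Pcgf5, which encodes a subunit of Polycomb repressive complex 1 (chr19:36409498-36409797, plus strand). The Etv6 window held 1 CRE core and 1 Sp motif, the Rbm18 window 3 Sp motifs and the Pcgf5 window 1 Sp motif. The Etv6 summits lay beyond its window, 153 bp downstream of the start in cKO KCl and 91 bp downstream in WT KCl. Its member lay 7 bp from a region with a peak in all 4 lists, and no longer met the rule when peaks up to 200 bp apart were merged.
Etv6: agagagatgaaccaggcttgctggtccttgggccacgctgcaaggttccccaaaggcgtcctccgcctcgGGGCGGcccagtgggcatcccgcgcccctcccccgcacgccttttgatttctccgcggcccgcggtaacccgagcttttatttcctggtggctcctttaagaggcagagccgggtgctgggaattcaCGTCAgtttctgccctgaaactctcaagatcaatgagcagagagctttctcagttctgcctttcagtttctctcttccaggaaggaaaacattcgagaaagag
Rbm18: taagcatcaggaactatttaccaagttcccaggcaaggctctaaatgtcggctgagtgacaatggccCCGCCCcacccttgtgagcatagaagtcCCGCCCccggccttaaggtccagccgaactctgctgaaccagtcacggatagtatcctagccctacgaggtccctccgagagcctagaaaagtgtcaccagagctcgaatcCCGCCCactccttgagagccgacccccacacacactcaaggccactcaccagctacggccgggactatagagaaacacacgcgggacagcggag
Pcgf5: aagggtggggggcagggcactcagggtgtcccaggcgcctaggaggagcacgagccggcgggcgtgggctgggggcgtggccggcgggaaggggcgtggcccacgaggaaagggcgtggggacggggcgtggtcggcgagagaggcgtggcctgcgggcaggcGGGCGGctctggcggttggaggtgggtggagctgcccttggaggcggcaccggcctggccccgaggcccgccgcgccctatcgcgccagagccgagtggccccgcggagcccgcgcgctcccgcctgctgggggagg
The last 2 windows hold a full CRE and lie wholly within a member. They were chosen after their values were seen. H2bc11 encodes a histone H2B and belongs to a family of near-identical genes, so its reads are uncertain (chr13:22042948-22043247, plus strand), and its CRE begins at position -96 from the start. Lsm2 encodes part of the Sm-like ring that binds U6 RNA (chr17:34981880-34982179, plus strand), and its CRE begins at position -34. The H2bc11 member had folds of 3.63 in cKO KCl and 2.92 in WT KCl, with summits at -18 in cKO KCl and -195 in WT KCl. The Lsm2 member had folds of 2.46 in cKO KCl and 3.07 in WT KCl, with summits at 6 in cKO KCl and -222 in WT KCl. At both windows the genotypes thus shared the region but not the summit.
H2bc11: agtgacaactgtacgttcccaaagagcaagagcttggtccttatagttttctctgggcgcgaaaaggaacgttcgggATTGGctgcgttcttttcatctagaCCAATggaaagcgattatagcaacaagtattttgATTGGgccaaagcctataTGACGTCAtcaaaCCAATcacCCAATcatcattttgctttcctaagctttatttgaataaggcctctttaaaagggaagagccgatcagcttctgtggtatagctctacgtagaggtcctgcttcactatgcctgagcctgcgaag
Lsm2: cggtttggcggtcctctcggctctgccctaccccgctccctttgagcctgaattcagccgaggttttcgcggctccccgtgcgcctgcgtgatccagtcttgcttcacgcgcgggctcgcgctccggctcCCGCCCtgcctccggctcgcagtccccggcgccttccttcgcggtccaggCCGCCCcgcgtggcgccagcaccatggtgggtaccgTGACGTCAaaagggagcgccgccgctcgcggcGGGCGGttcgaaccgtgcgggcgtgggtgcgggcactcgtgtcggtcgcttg

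The members were a small share of the regions with a peak in both KCl lists. Of 9614 such regions, 814 (8.47%) had no basal peak, while 7043 regions had a peak in all 4 lists, 1355 in both KCl lists and WT basal, and 402 in both KCl lists and cKO basal. The opposite pattern, a peak in both basal lists and in neither KCl list, held 1183 regions. The patterns that follow genotype in place of KCl held 776 regions (both cKO lists alone) and 1131 regions (both WT lists alone). Pairings that cross genotype and KCl held 2301 regions (cKO KCl with WT basal) and 424 regions (WT KCl with cKO basal), so the count of members lay between those of the crossed pairings. The lists differed in length, with 24947 peaks after KCl in cKO, 19847 after KCl in WT, 19921 for basal cKO and 33328 for basal WT. The long WT basal list removes the most candidates. Without it the rule gave 2169 regions, and without the cKO basal list it gave 1216. Another 21 regions of the same kind on chromosomes X and Y fall outside the rule.

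**Figure D1:**
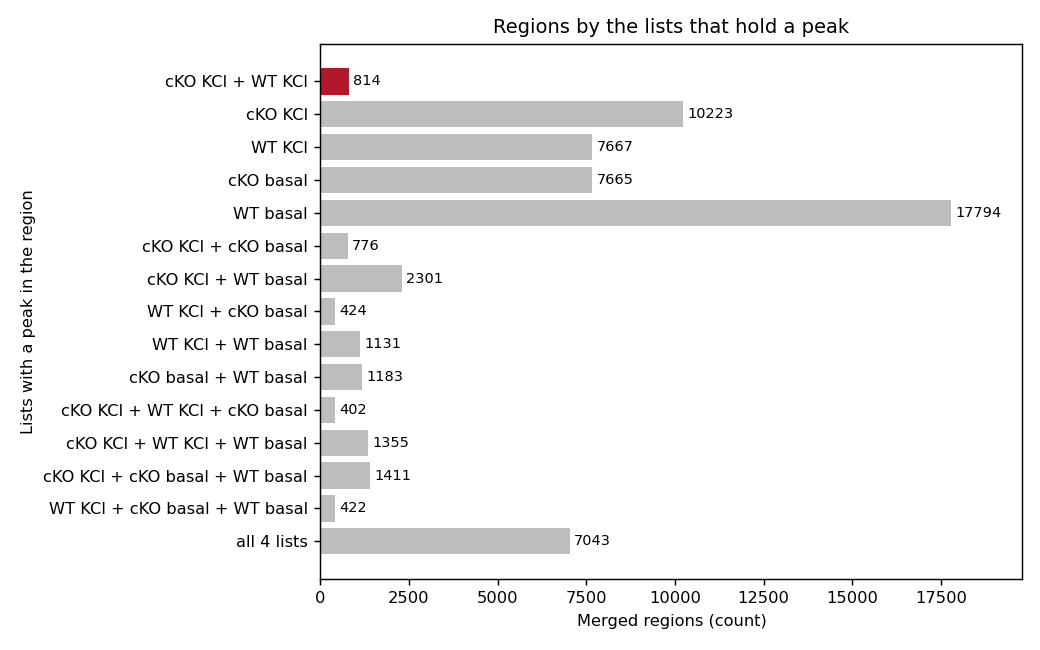
Bars give the number of merged regions (horizontal axis) for each combination of lists with a peak (vertical axis), on chromosomes 1 to 19, with the members in red at the top. The 814 members lie below the 1183 regions of both basal lists alone and above the 776 regions of both cKO lists alone.

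The depth of the lists in reads is unknown. The floor that the peak caller sets for the background, in fragments, was 8.36 for the cKO KCl list, 8.23 for the WT KCl list, 9.47 for the cKO basal list and 9.30 for the WT basal list, and the smallest summit pileup called at that floor lay between 20 and 22 fragments. Of 9 neuronal identity genes, 5 (Map2, Nefl, Nefm, Syt1 and Tubb3) had a gene-end peak in all 4 lists and Gap43 and Rbfox3 had none in any list. No microglial marker of 10 had a gene-end peak in any list, whereas 2 of 9 oligodendrocyte markers (Olig1 and Olig2), 4 of 10 astrocyte markers and 1 of 10 vascular markers had one in all 4 lists. Of 16 neural progenitor markers, 6 had one in all 4 lists, and the lists singly had 13 (cKO KCl), 7 (WT KCl), 9 (cKO basal) and 12 (WT basal). The part of non-neuronal cells in the members was not tested. Smarca4 carried a gene-end peak in all 4 lists, with folds of 5.62 (cKO KCl), 5.32 (WT KCl), 5.21 (cKO basal) and 4.89 (WT basal), and whether this site falls in the floxed part is not given in the sources used here. These are lists from bulk cultures, in which fewer cells with an open site and less opening per cell cannot be told apart.

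The members were peaks of moderate strength. Their summit pileup had a median of 30 fragments in cKO KCl (quartiles 27 and 35, range 21 to 61) and 29 in WT KCl (quartiles 26 and 33, range 21 to 51). The authors' fold over background had a median of 2.95 in cKO KCl (range 2.10 to 5.88) and 2.91 in WT KCl (range 1.99 to 4.73), just under the medians of the whole lists, 3.08 for cKO KCl and 3.03 for WT KCl. The median member stood at percentile 41.8 of fold within the cKO KCl list and 39.8 within the WT KCl list. Only 7 members were among the strongest 10% of cKO KCl peaks and 4 among those of WT KCl. In both lists at once, 179 members had a fold of at least 3 and 2 had a fold of at least 4. Fold was higher in cKO KCl than in WT KCl for 446 of the 814 members. The difference between the genotypes has no replicate check, since each condition has 1 list.

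**Figure D2:**
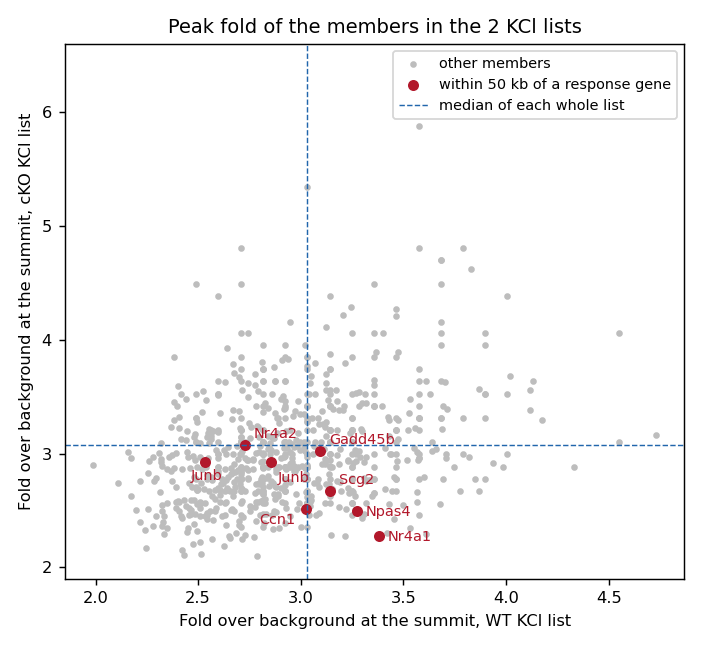
Each point is 1 member, by its peak fold over background in the WT KCl list (horizontal axis) and in the cKO KCl list (vertical axis), with red points for the members within 50 kb of a rapid or delayed response gene and dashed lines at the medians of the whole lists. All 8 red points lie below the list median in cKO KCl (Nr4a2 only just) and 4 of the 8 in WT KCl. Nr4a1 lies at 2.28 in cKO KCl and 3.38 in WT KCl.

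Absence of a basal peak means that no basal peak overlapped the member, and the lists hold no basal signal at these sites. The nearest basal peak lay a median of 8778.5 bp away, but 62 members had one within 200 bp and 158 within 1 kb. The smallest gaps were 4 bp beside Polr2l and Tspan4 (Polr2l encodes a small subunit of RNA polymerase), 5 bp at Kmt2a, a histone H3 lysine 4 methyltransferase gene, and 7 bp at Etv6. The shortest overlaps between the KCl peaks of the genotypes were 7 bp beside Polr2l and 8 bp at Slc11a1 and Pde4dip. The weakest member peaks had a −log10 q of 1.70 in cKO KCl, in the calcium pump gene Atp2b2, and 1.54 in WT KCl, near the cell cycle inhibitor gene Cdkn1c. Just outside the rule, a region at the transcription factor gene Sox11 had both KCl peaks and a cKO basal peak with a −log10 q of 1.32, and one at Taldo1 had a WT basal peak with 1.61.

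The members lay at gene ends and transcript starts more often than other regions found in exactly 2 lists. A site was taken to be at a gene end when a protein-coding gene began or ended within 1 kb of it, whichever the strand, and 310 members (38.1%, 95% Clopper-Pearson interval 34.7 to 41.5) lay at one. A further 34.2% lay inside genes away from their ends and 226 (27.8%) between genes. Within 1 kb of a RefSeq transcript start lay 292 of the 792 members on chromosomes for which starts were given (36.9%, 33.5 to 40.3). Starts were given for 16457 of the 20154 protein-coding genes on these chromosomes. Members at starts that were not given are therefore missed, in every pattern of lists. When the members were moved by 100 kb in either direction, 5.41 and 7.25% fell at a gene end and 2.65 and 4.798% at a start. The intervals cover counting error only, and the comparisons below are between lists of regions, not between conditions over replicates.

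The share at gene ends in the members exceeded that in regions of both basal lists alone (25.5%) by 12.6 percentage points (95% Newcombe interval 8.40 to 16.7), and the share at starts (22.7% there) by 14.2 points (10.1 to 18.3). Against regions of both WT lists alone the differences were 10.6 points at gene ends (6.36 to 14.8) and 12.3 points at starts (8.07 to 16.48). Against regions of both cKO lists alone they were smaller, 5.61 points at gene ends (0.909 to 10.3) and 5.75 points at starts (1.02 to 10.4). Against the pairings that cross genotype and KCl, the gene-end differences were 9.49 points (5.71 to 13.3) for cKO KCl with WT basal and 6.72 points (1.10 to 12.1) for WT KCl with cKO basal. Regions in a single KCl list lay at gene ends in 12.2% (cKO KCl) and 10.6% (WT KCl) of cases, and regions of all 4 lists in 75.8%. Among strong peaks the gene-end differences were smaller, with wider intervals. When both peaks of every region were required to have a fold of at least 3, the difference at gene ends was 5.54 points against both basal lists (-5.50 to 16.2), 4.88 against both cKO lists (-6.50 to 15.8) and 0.867 against both WT lists (-9.10 to 10.8). That filter left 179 members, and at starts the intervals of all 3 differences also included 0. The filtered gene-end intervals also include the differences found without the filter, so a change with strength is not shown. A fold of 3 is also a stricter cut in the basal lists, whose median folds were 2.88 (cKO basal) and 2.82 (WT basal), than in the KCl lists. At a distance of 2 kb the gene-end difference against both cKO lists was 2.82 points (-2.01 to 7.63).

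**Figure D3:**
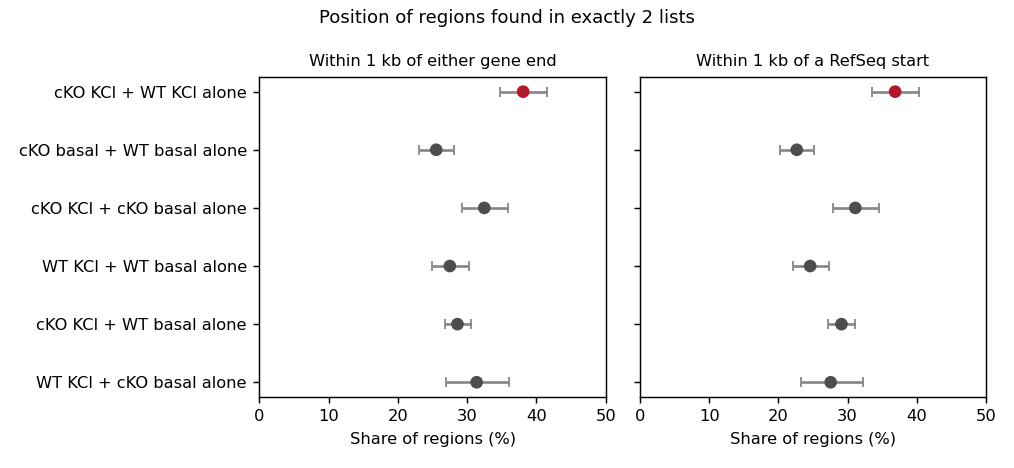
Points give the share of regions (horizontal axis, percent) within 1 kb of either gene end (left) or of a RefSeq start (right) for the 6 patterns of exactly 2 lists (vertical axis), with exact 95% intervals as bars. The members, in red, stand at 38.1% and 36.9%, and the regions of both basal lists alone are lowest at 25.5% and 22.7%.

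The share at starts was also set out by strength, as the mean of the percentiles of fold in both lists. The range of percentiles was cut at 33.3 and 66.7. The share was 33.5% in the lowest class (275 members), 37.96% in the middle class (432) and 42.4% in the highest class (85). For regions of both basal lists alone the same shares were 20.1, 21.8 and 36.1%, and for both WT lists alone 19.3, 24.7 and 41.5%. For both cKO lists alone they were 30.9, 30.9 and 33.3%. For the crossed pairings they were 27.8, 28.6 and 32.5% (cKO KCl with WT basal) and 26.4, 26.5 and 40.6% (WT KCl with cKO basal). In the lowest and middle classes the members' interval lay above those of both basal lists alone and both WT lists alone, and in the highest class all these intervals overlapped. Against both cKO lists alone the intervals overlapped in every class, though the interval of the difference in the middle class excluded 0 (7.03 points, 0.445 to 13.5). Of the members, 256 lay at a given start of a protein-coding gene, for 280 genes. Given starts on both strands were found at 23 of these members (8.98%), against 5.31% for both basal lists alone and 11.7% for all 4 lists.

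The distance between summits is bounded by the overlap that the rule asked for, so it is given as a description. The summits of a member's cKO KCl and WT KCl peaks lay a median of 75.5 bp apart (quartiles 26.25 and 141), and 308 members (37.8%) had them within 50 bp. The same distance was 83 bp in regions of both basal lists alone, 76.5 bp for both cKO lists alone, 86 bp for both WT lists alone and 51 bp in regions of all 4 lists. At starts, the cKO KCl summits of the members lay a median of 37 bp downstream (287 summits) and the WT KCl summits 17 bp downstream (289 summits). In regions of both basal lists alone the medians were 95.5 bp downstream in cKO basal and 111 bp downstream in WT basal, and in regions of all 4 lists they were 31 bp upstream. Within 100 bp of the start lay 44.3% of the members' cKO KCl summits and 47.8% of their WT KCl summits, against 33.6% of the cKO basal and 32.2% of the WT basal summits in regions of both basal lists alone.

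**Figure D4:**
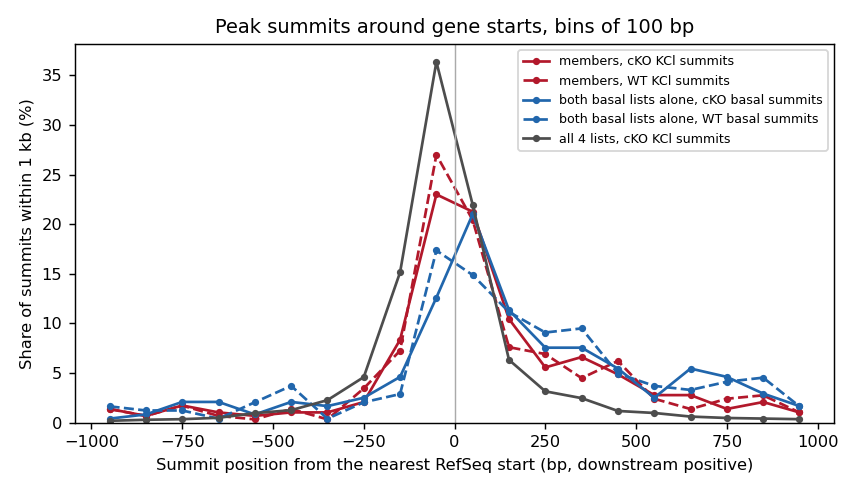
Lines give the share of summits within 1 kb of a RefSeq start (vertical axis, percent) in bins of 100 bp by position from that start (horizontal axis, bp, downstream positive). The members' summits (red) and those of all 4 lists (grey) are both most frequent in the bin just upstream of the start. The members' summits reach further downstream than those of all 4 lists, and those of both basal lists alone (blue) spread further still.

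Motifs could be counted only where a member overlapped a RefSeq promoter window of 300 bp, which held for 206 members, and 1 window was taken per region. An overlap of any length sufficed, and 36 of the 206 windows lay wholly within their member. The whole window was searched in every pattern, so a counted match can lie outside the region. The members' windows had a median of 20 CpG and 60.3% GC, near those of both basal lists alone (18 and 60.3%), both cKO lists alone (21 and 61.8%) and both WT lists alone (20 and 60.3%), and below those of all 4 lists (26 and 65.0%). The CRE core occurred in 76 member windows (36.9%, 30.3 to 43.9). It occurred in 25.2% of windows of both basal lists alone, a difference of 11.7 points (1.87 to 21.0), in 23.0% for both WT lists alone, a difference of 13.9 points (4.82 to 22.6), and in 30.4% for both cKO lists alone, a difference of 6.49 points (-3.56 to 16.1). Regions of all 4 lists had it in 37.0% of windows and all 31396 windows in 21.0%. The members' share was thus close to that of promoters with a peak in every list. Of the 178 member windows that reach within 100 bp of the cKO KCl summit, 40 (22.5%) had the CRE core in those bases, and the other patterns were not read at that width. The 12 motifs were read in the same windows, and the intervals are not adjusted for their number.

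For the other 6 motifs the interval of the difference included 0 against both basal lists alone, both cKO lists alone and both WT lists alone. A full CRE occurred in 7 member windows (3.40%), against 0.680% for both basal lists alone and 3.81% for all 4 lists. Besides H2bc11 and Lsm2, these were the windows of Rpl13, a ribosomal protein gene, Zfyve27, Foxd3, Gm33037 and Gm38491, though at Foxd3 the CRE lay 233 bases before the start and outside the member. AP-1 also occurred in 7 member windows (3.40%), against 4.76% for both basal lists alone, 3.16% for all 4 lists and 7.84% of all windows. Sp motifs occurred in 65.5% of member windows and in 77.0% for all 4 lists. CCAAT boxes occurred in 32.5% of member windows and in 43.8% for all 4 lists, and E-boxes (CANNTG) in 63.6% of member windows and in 56.0% for all 4 lists. Egr motifs occurred in 0.971% of member windows. Of the motifs given by name, Mef2 and the serum response element each occurred in 1.46% of member windows, Ctcf in 0.971%, and Nfi and Rfx in none of 206, which allows a share of up to 1.77% (exact 95% interval). Sites away from starts, where many activity-dependent enhancers lie, could not be searched.

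**Figure D5:**
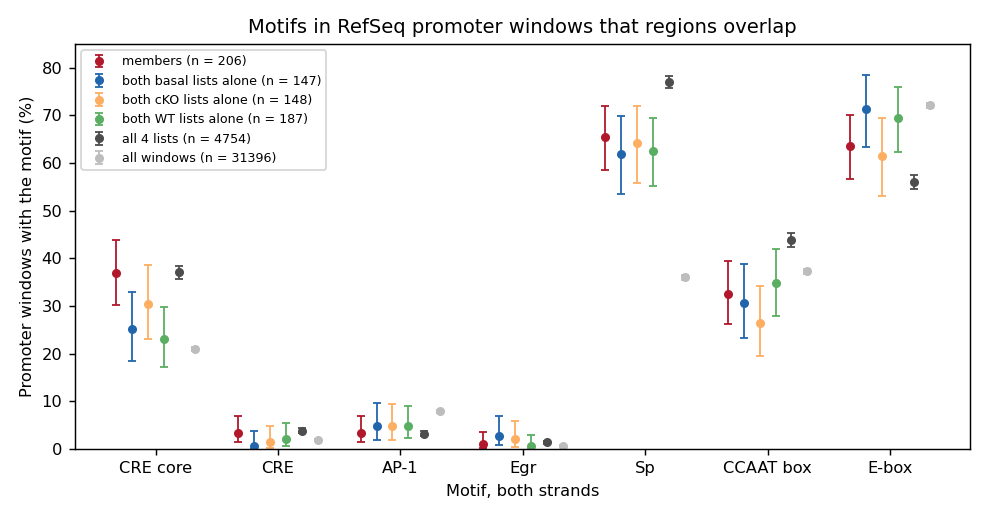
Points give the share of RefSeq promoter windows that hold each motif on either strand (vertical axis, percent), with exact 95% intervals, for windows overlapped by the members (red), by regions of other patterns and for all 31396 windows. The CRE core stands at 36.9% in the members and 37.0% in regions of all 4 lists, above 25.2% for both basal lists alone and 23.0% for both WT lists alone.

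Of 20 rapid response genes, 5 (Ccn1, Junb, Gadd45b, Nr4a1 and Npas4) had a member within 50 kb, with 6 members in all, and of 20 delayed response genes 2 did (Scg2 and Nr4a2). Of all 20665 protein-coding genes, 9.47% had a member within 50 kb. At a gene end itself, 2 rapid response genes (Junb and Gadd45b) and no delayed response gene had a member, against 1.72% of all genes. The lists were written with earlier results of these data known, and no test was made on them.

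Gadd45b, an activity-induced gene of the growth arrest and DNA damage family, had its member at the start (chr10:80929871-80930095). The summits lay 111 bp upstream in cKO KCl and 109 bp upstream in WT KCl, with pileups of 46 fragments in cKO KCl and 45 in WT KCl and folds of 3.02 in cKO KCl and 3.10 in WT KCl, and the nearest basal peaks were 28811 bp away in cKO basal and 28809 bp away in WT basal. Both lists thus gave near-equal values at this promoter. Nr4a1, which encodes an orphan nuclear receptor, had its member at an internal RefSeq start (chr15:101266614-101266958), with summits 68 bp upstream in cKO KCl and 67 bp upstream in WT KCl, within the window that holds the 4 CRE cores. Its pileup was 36 fragments in cKO KCl and 47 in WT KCl, and its fold was 2.28 in cKO KCl and 3.38 in WT KCl. That put Nr4a1 at percentile 1.64 of fold in the cKO KCl list and 71.0 in the WT KCl list, the reverse of the order at Junb. Both pileups at Nr4a1 lay above the median of their whole list, 31 fragments in cKO KCl and 30 in WT KCl. Nearest basal peaks to Nr4a1 were 10741 bp away in cKO basal and 10507 bp away in WT basal.

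Junb, which encodes a subunit of AP-1, had its member across its start, mostly on the upstream side (chr8:84978580-84979024). The pileup was 47 fragments in cKO KCl and 37 in WT KCl, and the fold was 2.93 in cKO KCl and 2.53 in WT KCl. The summits lay 68 bp downstream of the start in cKO KCl and 187 bp upstream in WT KCl, so the genotypes shared the region but not the summit. A second member lay 11.6 kb from Junb at a start of Hook2, an adaptor of microtubule motors (chr8:84990355-84990750), with folds of 2.92 in cKO KCl and 2.85 in WT KCl.

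The other members near response genes did not lie at a given start of those genes. A member 37.7 kb from Npas4, the neuronal bHLH-PAS factor gene, sat at gene ends of B4gat1 and Brms1 (chr19:5041161-5041573), with a fold of 2.5 in cKO KCl and 3.27 in WT KCl. One lay between genes 32.4 kb from Ccn1, which encodes a secreted matrix protein (chr3:145614366-145614612, folds of 2.51 in cKO KCl and 3.03 in WT KCl). A member 10.3 kb from Scg2, the secretogranin II gene (chr1:79450368-79450928), had folds of 2.67 in cKO KCl and 3.14 in WT KCl, and its nearest basal peak lay 170424 bp away. The member inside Nr4a2, another orphan nuclear receptor gene (chr2:57114587-57115110), had folds of 3.08 in cKO KCl and 2.73 in WT KCl, with a WT basal peak 758 bp away. Of these 8 members, 5 had the lower fold in cKO KCl, and single lists give no error for that split. With all lists cut to the same number of peaks, the members at Nr4a1 and near Npas4, Ccn1 and Scg2 no longer met the rule, and with a fold of at least 3 in both lists the one at Gadd45b alone did. Without the WT basal list the rule gave 2169 regions, of which 11 lay near rapid and 10 near delayed response genes. The share of all genes near those 2169 regions was not counted.

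The 8 gene-end members with the highest fold in both lists were at Eps8, Commd2, Fam204a, Rbm18 with Mrrf, AW146154, Tango6, Etv6 and Caly. Eps8 encodes an actin-capping adaptor, and its member (chr6:137649193-137649504) had folds of 4.38 in cKO KCl and 4.01 in WT KCl, with summits 19 bp apart. Commd2 had 3.95 in cKO KCl and 3.90 in WT KCl, and Fam204a had 4.70 in cKO KCl and 3.68 in WT KCl. The member between Rbm18 and Mrrf, a mitochondrial ribosome recycling factor gene (chr2:36136476-36136906), had 4.81 in cKO KCl and 3.57 in WT KCl. AW146154 had the largest cKO KCl fold of all members, 5.88, against 3.57 in WT KCl. Caly, which encodes the neuronal vesicle protein calcyon, had 3.64 in cKO KCl and 4.13 in WT KCl, Tango6 had 3.74 in cKO KCl and 3.57 in WT KCl, and Etv6 had 3.90 in cKO KCl and 3.47 in WT KCl. Of these 8 members, 7 had the higher fold in cKO KCl, and Caly had the higher fold in WT KCl. Those at Eps8, Commd2 and Fam204a were at a gene end and had no given RefSeq start within 1 kb. The given starts do not cover every protein-coding gene, so these ends may still be starts.

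Away from gene ends, the strongest members lay inside Cttnbp2, Plag1, Jarid2 and Pcgf5 and nearest to Slc36a4, Ncoa1, Cdh11 and Zswim6. The member in Cttnbp2, which encodes a cortactin-binding protein of dendritic spines (chr6:18446880-18447143), had folds of 4.81 in cKO KCl and 3.79 in WT KCl, with summits 5 bp apart. The member in the zinc finger gene Plag1 (chr4:3929632-3929884) had 4.06 in cKO KCl and 4.55 in WT KCl. In genes of Polycomb cofactors, Jarid2 had 4.70 in cKO KCl and 3.68 in WT KCl, and Pcgf5, where the member lay at an internal start, had 3.95 in cKO KCl and 3.68 in WT KCl. The member nearest to Slc36a4, an amino acid transporter gene, was 32558 bp away and had 4.62 in cKO KCl and 3.83 in WT KCl. The one nearest to Cdh11, a cadherin gene, was 529049 bp away and had 4.49 in cKO KCl and 3.68 in WT KCl. The one nearest to the coactivator gene Ncoa1 was 46074 bp away, 534 bp from another RefSeq start, and had 4.06 in cKO KCl and 3.90 in WT KCl. The one nearest to Zswim6 was 183459 bp away, at the RefSeq start of Gm31920, and had 4.16 in cKO KCl and 3.68 in WT KCl. Of these 8 members, 7 had the higher fold in cKO KCl, and the one in Plag1 had the higher fold in WT KCl. The summits of the member in Pcgf5 lay 84 bp apart, the widest spacing of the 8. A member inside Adamtsl1 (chr4:86053849-86054077, 4.06 in cKO KCl and 3.68 in WT KCl) tied in rank with those at Jarid2, Pcgf5, Cdh11 and Zswim6.

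The counts for the other gene lists stand beside 9.47% of all genes with a member within 50 kb and 1.72% with one at an end. Among 24 calcium and activity signalling genes, 3 had a member within 50 kb. The member at the start of Hdac5, a class IIa histone deacetylase gene, had folds of 3.51 in cKO KCl and 2.60 in WT KCl, and Mef2a had 2 members outside the gene and Nfatc3 1. Of 19 synapse genes, 2 had a member: one lay at an end of Grin2a, an NMDA receptor subunit gene (folds of 2.92 in cKO KCl and 2.95 in WT KCl), and one inside the scaffold gene Shank2 (2.99 in cKO KCl and 3.14 in WT KCl). Of 18 ion channel genes, Hcn2 had one at its start (2.29 in cKO KCl and 2.73 in WT KCl). Of 25 BAF subunit genes, 4 had a member within 50 kb, at the starts of Arid1b (3.55 in cKO KCl and 2.52 in WT KCl) and Dpf3 (2.91 in cKO KCl and 3.10 in WT KCl) and, outside the genes, 19.2 kb from Smarca4 and 41.4 kb from Smarce1. Of 19 axon guidance genes, 3 had a member, namely Ephb2 with 2, Ntn1 and Slit1.

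Marker lists of the cell types had members near between 0 and 30% of their genes, against 9.47% of all genes, with the astrocyte list highest. Of 20 excitatory neuron genes, 3 had a member within 50 kb (Cux1, Foxp1 and Rorb), and of 16 inhibitory neuron genes 2 did (Erbb4 and Lhx6). None of 9 neuronal identity, 16 neural progenitor, 9 oligodendrocyte and 10 microglial genes had one. Of 10 astrocyte genes, 3 had a member within 50 kb: Sox9 inside the gene (folds of 2.16 in cKO KCl and 2.42 in WT KCl), Aldh1l1 43.5 kb away and Gfap 27.8 kb away at the start of Kif18b. The cell cycle list (1 of 14 genes), the vascular list (1 of 10) and the housekeeping list (1 of 10) had members 45.3 kb from Mcm6, 9.74 kb from Vtn and 9.14 kb from Gapdh. With lists this short, 1 gene moves a share by several points, and the share of all genes is 9.47%.

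Members were scattered along the genome. Their share of all regions ranged between 0.971% on chromosome 15 and 1.82% on chromosome 19, and 42 members had another member within 50 kb. Kalrn, a gene of 604 kb known for its role in dendritic spines, held the most, with 3 members in its body (chr16:34094356-34094664, chr16:34395374-34395770 and chr16:34441014-34441484). Their folds were 2.68, 2.63 and 3.53 in cKO KCl, and 2.58, 3.05 and 3.04 in WT KCl. Genes with 2 members ranged in length from Tdrd7 (69.7 kb) to Gpc6 (1055 kb). The longest besides Gpc6 were Npas3 (824 kb), Ptprg (689 kb) and Kirrel3 (555 kb). Others were Atp2b2, which encodes a plasma membrane calcium pump, the cell adhesion gene Dscaml1 and the laminin chain gene Lama3. The prostaglandin transporter gene Slco2a1, the zinc finger gene Zfp148 and Sorbs2 also had 2. Longer genes offer more room for members, and these counts were not set against gene length. Of the 226 members between genes, the median distance to a protein-coding gene was 34539 bp and 58 lay over 100 kb away.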

How the data were processed

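ATAC-seq libraries of cultured mouse cortical neurons were sequenced by the authors with paired 75-bp reads (60 M per library) after 7 to 9 PCR cycles, per the labels' protocols. Per the submitters' processing notes, Bowtie2 and MACS2 were used with GRCm38/mm10. Not given in the sources used here are the versions and settings of both tools, the treatment of duplicates and of the Tn5 offset, and the pooling of libraries. The authors deposited 1 nucleosome-free peak list per condition, which holds for each peak a score, a fold over local background (a ratio), the −log10 of the p and q values, and the summit offset in bp. The peak values are the authors' own and served to describe peaks, or to rank and filter them inside 1 list.

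Peaks on chromosomes 1 to 19 were merged at an overlap of 1 bp or more. The summit pileup and background were solved from the authors' fold, taken as (pileup + 1)/(background + 1), and the Poisson p-value. In 100% of peaks a whole number of fragments satisfied both equations within 0.001 in −log10 p. Genes, transcript starts and promoter windows came from RefSeq tables of GRCm38.p6, and starts on chromosome 18 were not used here. On the other chromosomes, 16457 of 20154 protein-coding genes had a start and a promoter window. Python 3.11.15 with pandas 2.3.3, NumPy 2.4.6 and SciPy 1.17.1 was used, and the merging and pileup steps were tested on simulated data. Shares carry exact 95% Clopper-Pearson intervals and differences 95% Newcombe intervals, both for counting error only. With 1 list per condition no test between conditions was made and the depth in reads is unknown.

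Named members were the 8 with the highest within-list rank of fold in both KCl lists at gene ends and the 8 away from them, every member within 50 kb of a rapid or delayed response gene, the genes with most members, and those nearest to the limits of the rule. From the other gene lists, genes with a member were named beside their count. The members, the 17 gene lists and these rules were chosen with earlier results of these data known.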

Additional observations from a re-analysis of the deposited data

How the results depend on the processing

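No paired analysis was possible because each condition has 1 list without a replicate number, and for the same reason no replicate could be left out. With an overlap of at least 100 bp, or with peaks up to 200 bp apart merged, the median summit distance was 66 or 83 bp. With peaks up to 1000 bp apart merged it was 107 bp, the gene-end share was 30.5%, the start share 29.2%, and 1 member lay near a delayed response gene. At a −log10 q of at least 3 there were 663 members, and 544 of the 814 described here were kept. The gene-end share was then 44.3%, the start share 43.5%, the median folds 3.04 in cKO KCl and 3.03 in WT KCl, and 1 member lay near a delayed response gene. With lists cut to equal length there were 869 members, and 642 of the 814 were kept, so these shares describe partly different regions. The shares were 43.0% at gene ends and 43.6% at starts, and the cKO KCl median fold was 3.09. Near delayed response genes lay 4 members, while the members near Nr4a1, Npas4, Ccn1 and Scg2 were lost. Without members that had a basal peak within 1 kb, the shares were 33.7 and 32.6%, and 1 member lay near a delayed response gene. A fold of at least 3 in both lists left 179 members, a summit distance of 54 bp, median folds of 3.42 in cKO KCl and 3.26 in WT KCl, 1 member near a rapid response gene and 0 near a delayed one. Under it the differences at gene ends were 5.54, 4.88 and 0.867 points, and at starts 3.84, 8.52 and 1.23 points, against both basal, both cKO and both WT lists alone, and every interval included 0. With gene ends at 500 bp the shares were 32.8% at gene ends and 32.8% at starts. At 2 kb the gene-end share was 42.4% and the difference against both cKO lists 2.82 points. Within 10 kb, 3 members lay near rapid and 1 near delayed response genes. Limited to bases within 50 or 100 bp of the cKO KCl summit, the CRE core occurred in 11.4 or 22.5% of the 158 or 178 windows that reach there and the CCAAT box in 18.99 or 23.0%. Of 24 named members, the alternatives kept between 17 and 24. The cause of these changes was not tested. The next alternatives were chosen after seeing the data. Without the WT basal list there were 2169 members, with 47.9% at gene ends, 47.7% at starts and median folds of 3.10 in cKO KCl and 3.03 in WT KCl. Of these, 11 lay near rapid and 10 near delayed response genes, and the share of all genes was not counted for them. Without the cKO basal list 44.0% lay at gene ends and 43.1% at starts. Taking in chromosomes X and Y gave 835 members. In the middle class of strength the gene-end difference against both cKO lists was 4.76 points (-1.73 to 11.2) and the start difference 7.03 points (0.445 to 13.5).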

Other observations

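The single cluster of 3 or more members within 50 kb of each other held 4 members, between positions 106154417 and 106241924 of chromosome 3, around Chil3 and Chil4, which encode chitinase-like proteins known from macrophages. Their folds were 2.78, 3.42, 2.67 and 2.35 in cKO KCl and 2.80, 3.57, 3.44 and 2.82 in WT KCl, in order of position. Chil3 and Chil4 are closely similar copies, so reads there can be split between them, and the microglial markers had no gene-end peak in any list.

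A few members lay at microRNA hairpins annotated by RefSeq. A member inside Dnm3 overlapped the Mir199a-2 hairpin (folds of 2.99 in cKO KCl and 2.82 in WT KCl), one in Zfp27 overlapped Mir7668 (3.63 in cKO KCl and 2.82 in WT KCl), and the member at the start of Hdac5 overlapped Mir8101. A member in Bcas3 lay 137 bp from Mir5110 (3.42 in cKO KCl and 3.21 in WT KCl). Whether these peaks belong to the hairpin's promoter or to the host gene cannot be told apart from the lists.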
